A study of Homo sapiens with 4 samples.

Results

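The genes for the proteins of the mitochondrial ribosome were followed in U251-MG, an established human glioblastoma line, with and without overexpression of COL8A1, a chain of the network-forming collagen VIII. The members were all rows of the count table whose symbol is MRPL or MRPS, a number and at most a letter A to C. That rule found 78 of 61806 genes, of which 49 carry an L symbol for the large subunit and 29 an S symbol for the small subunit. They lie on 21 chromosomes. All 78 were among the 17030 genes that passed the filter on low counts.

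The 2 COL8A1 libraries came from U251-MG cells infected with a lentivirus made from pCDH-CMV-MCS-EF1-puro that carried the COL8A1 cDNA behind the CMV promoter. The 2 NC libraries came from U251-MG cells infected with the negative control vector of the same kind. The labels give both groups as wild type and name no clone, and no label says that replicates were separate cultures. Every p-value here therefore reflects the spread between single libraries and may hold technical variation only. Total counts were 31605164 and 27923796 in COL8A1 replicates 1 and 2, and 30895414 and 33576228 in NC replicates 1 and 2. The COL8A1 gene itself had 4290 and 2259 counts in COL8A1 libraries, against 77 and 82 in NC libraries, in the direction the labels give. Of the glioma markers, VIM, CD44, NES, SOX2, SOX9 and TGFBI were expressed in every library, GFAP was below 3 CPM, and OLIG2 was at 0 counts in all 4. AIF1 and MOG, markers of immune cells and oligodendrocytes, were at 0 counts in all 4 libraries. Of the same lists CD68 had 3.37 and 4.14 CPM in COL8A1 libraries, against 4.60 and 5.55 CPM in NC libraries, and MBP was below 1 CPM in every library. CDH5, KRT8 and SYT1, which mark endothelium, epithelium and neurons, were expressed. The filter on low counts was passed by 2 of 3 listed endothelial markers, 1 of 2 epithelial and 1 of 3 neuronal ones. Of the fibroblast and pericyte markers 2 of 3 passed. These summed to 3.78 and 3.53 CPM in COL8A1 libraries, against 3.91 and 3.06 CPM in NC libraries.

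The mitochondrial ribosome is made of rRNAs encoded by mitochondrial DNA and of proteins encoded in the nucleus, made in the cytosol and imported. It translates only the few mRNAs of the mitochondrial genome, which encode core subunits of the respiratory chain and of ATP synthase. Part of its proteins have bacterial homologs and the rest are specific to mitochondria, and the letter in a symbol is not always the subunit: MRPS30 and MRPS18A sit in the large subunit in solved structures, and MRPS36 is a component of the 2-oxoglutarate dehydrogenase complex.

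Genomic sequence is shown for genes named below, and whether it bears on their levels was not tested. The first stretch precedes MRPL3, the large subunit member with the lowest p-value, and the capitals mark a match to the ETS motif CCGGAAGT. The second is the gap between the GENCODE spans of MRPL46 and MRPS11, a large and a small subunit gene that lie head to head and had unadjusted p-values under 0.05 in opposite directions. Both are read 5′ to 3′ on the minus strand from the RefSeq promoter table, build GRCh38.p14. They are chr3:131502984-131503091 and chr15:88467420-88467452, and each stops at the outermost gene start in GENCODE release 29.
MRPL3: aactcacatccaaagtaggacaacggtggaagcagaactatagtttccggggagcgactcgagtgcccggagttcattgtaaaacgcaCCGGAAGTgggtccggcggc
MRPL46 to MRPS11: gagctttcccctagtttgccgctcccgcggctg

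Between COL8A1 and NC libraries, the mitochondrial ribosomal protein genes differed little as a group. With edgeR's quasi-likelihood test, 0 of the 78 members passed an adjusted p of 0.05, in a comparison in which 2 of 17030 genes (0.0117%) passed. COL8A1 itself missed that threshold in edgeR, with an adjusted p of 0.0681 at a log2 fold change of 5.45. Its DESeq2 adjusted p was 6.25e-72. The absence of edgeR calls therefore says little about how small the differences of the members were. At an unadjusted p under 0.05 there were 5 members, or 6.41%, against 6.07% of all genes tested, which is a share close to the background. Of these, 2 were higher in COL8A1 libraries, MRPL46 and MRPL10, where 3.44% of all genes were. The other 3 were lower, MRPS33, MRPL3 and MRPS11, where 2.63% of all genes were. That split by direction was not stable when single libraries were left out. With DESeq2, 2 members passed an adjusted p of 0.05, MRPS33 and MRPL3, where 1.06% of all genes passed. In bulk RNA, fewer cells that express a gene and less of its RNA per cell cannot be told apart.

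Most members had a slightly lower fitted level in COL8A1 libraries. The log2 fold change of COL8A1 over NC was below 0 for 52 members and above 0 for 26, so 66.7% were lower, against 49.8% of all genes tested. The median over members was -0.05, beside 0.001 over all genes tested. In 62 of 78 members the log2 fold change lay within 0.2 of 0, and in 5 it was beyond 1.5-fold, MRPL30, MRPS16, MRPL10, MRPS33 and MRPL3, against 3.27% of all genes of at least 10 CPM. The median member had a 95% interval of 0.314 on either side of its estimate on the log2 scale. For 57 members the whole interval lay within a 1.5-fold difference, and for 68 within 2-fold, while 10 reached 2-fold or more.

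**Figure D1:**
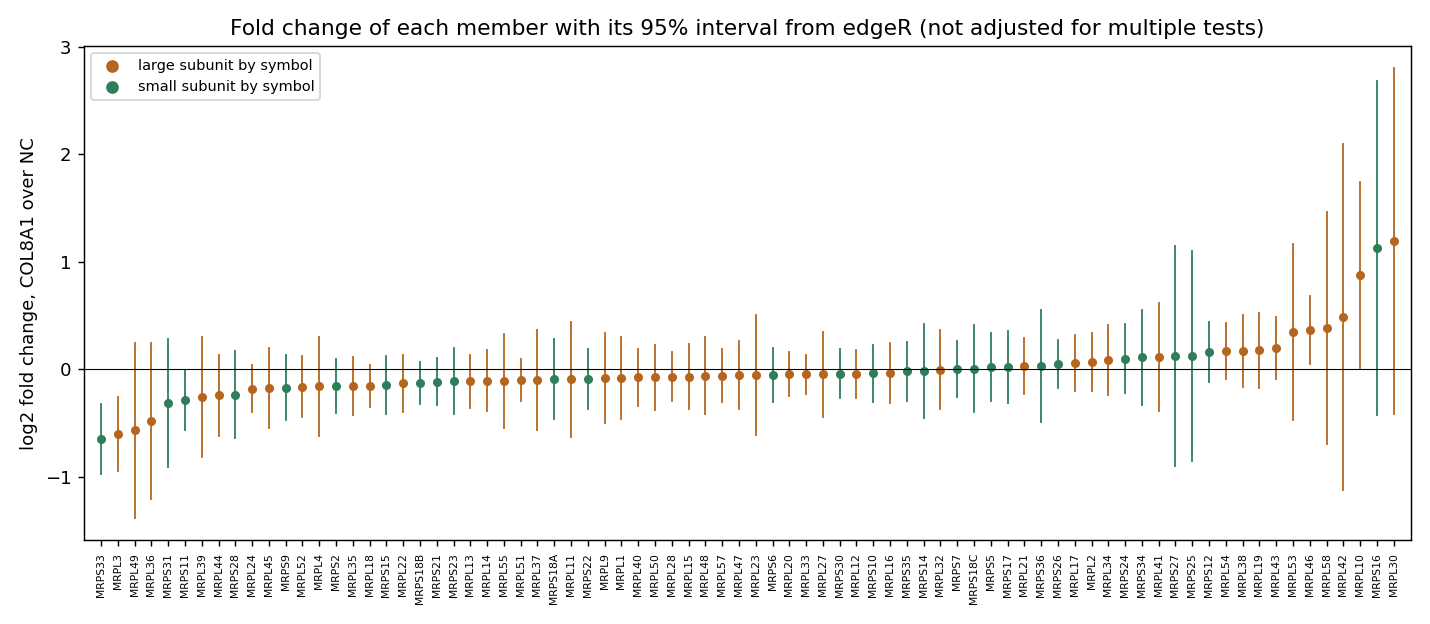
Log2 fold change of COL8A1 over NC for each of the 78 members, ordered by size and coloured by the subunit in the symbol, with the 95% interval of the edgeR estimate, not adjusted for multiple tests. Most points sit within 0.2 of 0, MRPS33 (-0.65) and MRPL3 (-0.60) lie lowest, and wide intervals belong to members whose libraries disagree within a group, such as MRPL30.

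The direction of that small difference rested on a single library. COL8A1 replicate 1 was the lowest of the 4 libraries for 42 members (53.8%), against 31.2% of all genes with a mean of at least 10 CPM (counts scaled to library size, with TMM factors). The other libraries were lowest for 11 members in COL8A1 replicate 2, 17 in NC replicate 1 and 8 in NC replicate 2. The median deviation of the members from their own 4-library mean was -0.08 and 0.04 on the log2 scale in COL8A1 libraries, against 0.05 and 0.03 in NC libraries. So COL8A1 replicate 2 lay beside the NC libraries and COL8A1 replicate 1 below them. Without COL8A1 replicate 1, 38 members were lower and 40 higher. Without COL8A1 replicate 2, 59 were lower and 19 higher. Over all genes tested the same median deviation was 0.008 and 0.003 in COL8A1 libraries, and 0.003 and 0.006 in NC libraries.

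The groups did not overlap in 32 members. In 25 of them (32.1%) both COL8A1 libraries were below both NC libraries, against 18.6% of all genes tested. In the other 7 (8.97%) both COL8A1 libraries were above both NC libraries, against 18.9% of all genes tested.

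Both subunits gave nearly the same picture. Of the 49 members with an L symbol, 34 were lower and 15 higher in COL8A1 libraries, with a median log2 fold change of -0.06. Of the 29 with an S symbol, 18 were lower and 11 higher, with a median of -0.04. The groups did not overlap in 15 large subunit members that were lower (30.6%) and 5 that were higher (10.2%). In the small subunit this held for 10 that were lower (34.5%) and 2 that were higher (6.90%). Of all genes tested, 18.6% were lower and 18.9% higher without overlap. Placing MRPS30 and MRPS18A with the large subunit and leaving MRPS36 out gave 51 and 26 members with medians of -0.06 and -0.03. In both subunits COL8A1 replicate 1 was lowest most often, for 27 large and 15 small subunit members. The difference between the subunits was not tested.

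Summed over members, the large subunit genes gave 2550 and 2746 CPM in COL8A1 libraries, against 2747 and 2680 CPM in NC libraries. The small subunit genes gave 1354 and 1531 CPM in COL8A1 libraries, against 1457 and 1392 CPM in NC libraries. For both subunits COL8A1 replicate 1 had the lowest sum, and the sum of COL8A1 replicate 2 was within 1 CPM of the highest NC library for the large subunit and above both for the small one. The ratio of the small to the large sum was 0.531 and 0.558 in COL8A1 libraries, against 0.530 and 0.519 in NC libraries. That higher ratio in COL8A1 replicate 2 came down to 0.502 once the 6 members that differed more than 2-fold between libraries of a group were left out, with 0.489 in COL8A1 replicate 1, against 0.489 and 0.489 in NC libraries. Without these 6 members the large subunit sums were 2391 and 2484 CPM in COL8A1 libraries, against 2585 and 2566 CPM in NC libraries. The small subunit sums were then 1168 and 1247 CPM in COL8A1 libraries, against 1263 and 1256 CPM in NC libraries. Both COL8A1 sums were thus below both NC sums in each subunit, so the high sums of COL8A1 replicate 2 rested on the members left out. All members together took 0.393% and 0.425% of the counts in COL8A1 libraries, against 0.417% and 0.409% in NC libraries.

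**Figure D2:**
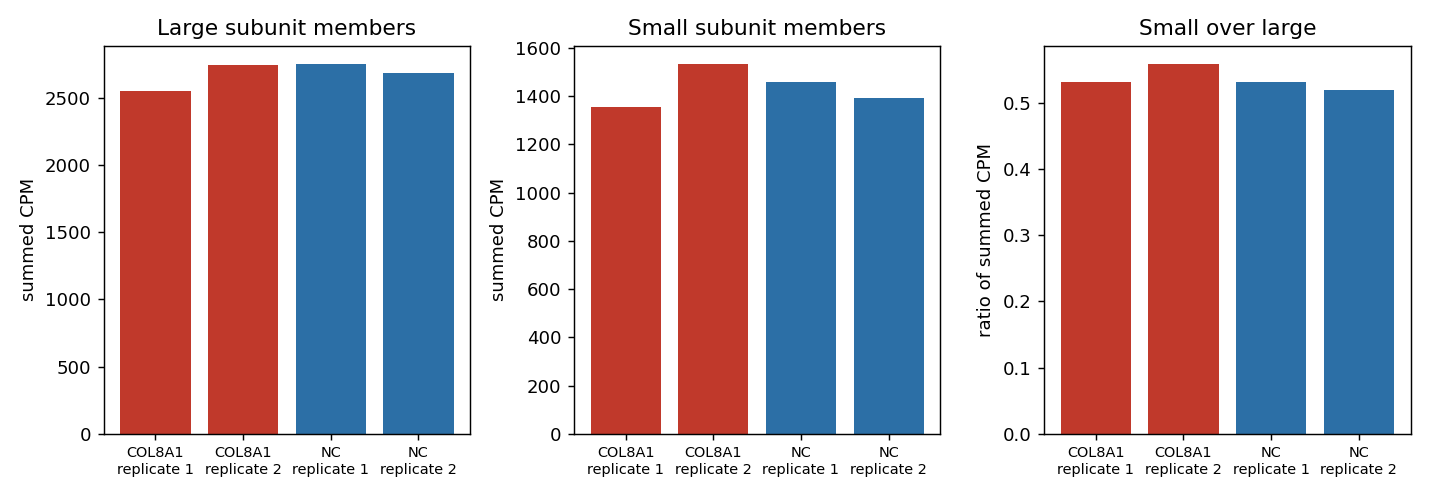
Bars give the CPM summed over the large and over the small subunit members, and the ratio of the small to the large sum, 1 bar per library, with COL8A1 libraries left of NC libraries. COL8A1 replicate 1 has the lowest sum for both subunits (2550 and 1354 CPM), and COL8A1 replicate 2 has the highest ratio (0.558).

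The members were also split by the origin of the protein, and the differences between these classes were not tested. Among large subunit members in the structures, 23 of 30 with a bacterial homolog and 13 of 21 specific to mitochondria were lower in COL8A1 libraries, both with a median log2 fold change of -0.06. The groups did not overlap in 10 lower (33.3%) and 1 higher (3.33%) of those with a bacterial homolog. Of those specific to mitochondria they did not overlap in 5 lower (23.8%) and 4 higher (19.0%). Over all genes tested these shares were 18.6% lower and 18.9% higher. Among small subunit members, 10 of 16 with a bacterial homolog were lower, with a median of -0.03, as were 6 of 10 specific to mitochondria, with a median of -0.05.

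Expression per length spanned a wide range among proteins that are built into the same particle. Per kilobase of merged exons, the large subunit members had a median level of 16.2 CPM in COL8A1 libraries, with a range of 1.92 to 160, and of 16.9 CPM in NC libraries, with a range of 1.51 to 165. The small subunit members had a median of 12.9 CPM per kilobase in COL8A1 libraries, with a range of 3.02 to 49.3, and of 13.5 in NC libraries, with a range of 4.25 to 49.1. MRPL12, MRPL51, MRPL18 and MRPL33 were the highest, all of the large subunit. MRPL53, MRPL46, MRPS33 and MRPS22 were the lowest. Merged exons overstate the transcript where a gene has long alternative models, so the low levels per length are uncertain.

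**Figure D3:**
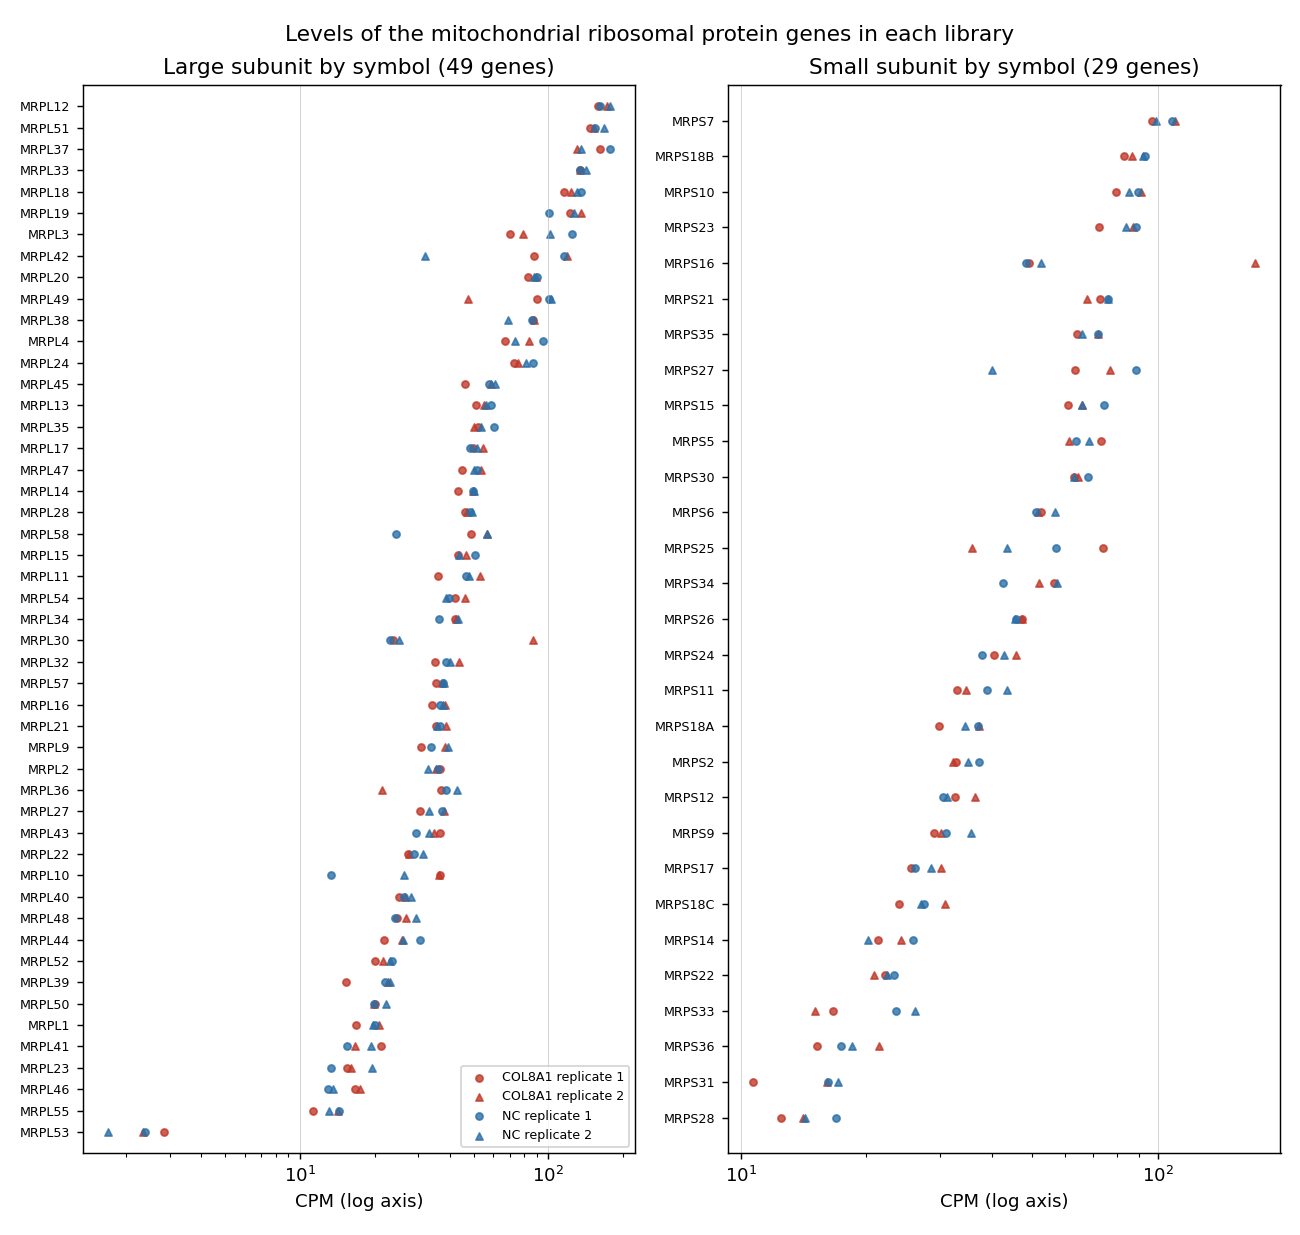
CPM of each member in each library on a log axis, with the 49 large subunit genes on the left and the 29 small subunit genes on the right, ordered by level and not divided by length (red COL8A1, blue NC, circles replicate 1, triangles replicate 2). The 4 points lie close together for most members, while MRPL30 and MRPS16 have COL8A1 replicate 2 far to the right and MRPL42 has NC replicate 2 far to the left (31.8 CPM).

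MRPL12, the homolog of bacterial L7/L12 in the stalk that binds elongation factors and also known to bind the mitochondrial RNA polymerase, had the highest level per length. It measured 158 and 172 CPM in COL8A1 libraries, against 161 and 177 CPM in NC libraries. The groups overlapped, and its log2 fold change was -0.04 (SE 0.085, edgeR adjusted p = 0.955). MRPL51, specific to mitochondria, had 147 and 152 CPM in COL8A1 libraries, against 154 and 167 CPM in NC libraries. Both COL8A1 libraries of MRPL51 were the lower ones, by 0.10 on the log2 scale. MRPL33, a homolog of bacterial L33, had 134 and 134 CPM in COL8A1 libraries, against 134 and 142 CPM in NC libraries, a difference of -0.05 on the log2 scale. MRPL18, a homolog of bacterial L18, had 115 and 123 CPM in COL8A1 libraries, against 135 and 130 CPM in NC libraries. Its groups did not overlap, with a log2 fold change of -0.15 (unadjusted p = 0.0994). MRPL24, a homolog of bacterial L24, had 72.7 and 75.7 CPM in COL8A1 libraries, against 87.0 and 81.0 CPM in NC libraries. Its groups did not overlap either, and its log2 fold change was -0.18 (unadjusted p = 0.0863).

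MRPS33, a small subunit protein specific to mitochondria, had the lowest p-value of the members. The gene is ENSG00000090263, at chr7:141002610-141015228 on the minus strand of hg38. It had 530 and 419 counts, or 16.7 and 15.1 CPM, in COL8A1 libraries, against 723 and 882 counts, or 23.6 and 26.2 CPM, in NC libraries. Both COL8A1 libraries were below both NC libraries, at 15.9 ± 1.12 CPM in COL8A1 libraries and 24.9 ± 1.83 CPM in NC libraries (SD, n = 2 each). The log2 fold change was -0.65 (SE 0.124), with a 95% interval of -0.97 to -0.32. Its unadjusted p of 0.00429 ranked 134 among all genes tested, and its adjusted p was 0.541 with edgeR and 0.0233 with DESeq2. Without the low-count filter the DESeq2 value was 0.0817.

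MRPL3 is the homolog of bacterial L3, an rRNA-binding protein that lies near the peptidyl transferase centre. The gene is ENSG00000114686, at chr3:131462212-131502983 on the minus strand of hg38. It had 2224 and 2185 counts, or 70.0 and 78.7 CPM, in COL8A1 libraries, against 3800 and 3413 counts, or 124 and 101 CPM, in NC libraries. The groups did not overlap, at 74.3 ± 6.15 CPM in COL8A1 libraries and 113 ± 16.02 CPM in NC libraries (SD, n = 2 each). The log2 fold change was -0.60 (SE 0.131), with a 95% interval of -0.94 to -0.26. Its unadjusted p was 0.00712, with an adjusted p of 0.580 in edgeR and 0.0325 in DESeq2. Leaving out single libraries moved its log2 fold change between -0.74 and -0.45.

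MRPL46 and MRPS11 share the gap printed above. MRPL46 (ENSG00000259494) lies at chr15:88459476-88467419 on the minus strand and MRPS11 (ENSG00000181991) at chr15:88467453-88480773 on the plus strand, with 33 bases between these GENCODE spans and 319 between the RefSeq starts. MRPS11, the homolog of bacterial S11 on the platform of the small subunit, had 33.0 and 34.7 CPM in COL8A1 libraries, against 38.9 and 43.4 CPM in NC libraries. Both COL8A1 libraries were the lower ones, with a log2 fold change of -0.28 (SE 0.106, unadjusted p = 0.0489). MRPL46, a large subunit protein specific to mitochondria, had 16.7 and 17.5 CPM in COL8A1 libraries, against 12.9 and 13.6 CPM in NC libraries. Here both COL8A1 libraries were the higher ones, with a log2 fold change of 0.36 (SE 0.119, unadjusted p = 0.0310). Neither passed the adjustment over all genes, with edgeR adjusted p-values of 0.816 for MRPS11 and 0.770 for MRPL46.

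The difference of MRPL46 was smaller once the counts of a second gene were added to it. Whether reads from the exons they share were assigned to one gene or the other was not tested. ENSG00000173867, named here after its values were seen, shares 724 exon bases with MRPL46 on the same strand. It had 72 and 35 counts in COL8A1 libraries, against 184 and 67 in NC libraries, so NC replicate 1 stood highest. Summed with it, MRPL46 came to 603 and 521 counts in COL8A1 libraries, against 581 and 526 in NC libraries. The summed log2 fold change was 0.13, with an unadjusted p of 0.413. Of all members, 16 share exons with a counted gene on their own strand and 29 with a gene on the other strand, and the strand setting of the counting is not given in the sources used here.

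MRPL10, which anchors the MRPL12 stalk, had the largest difference of the 5 but also the least even NC libraries. The gene is ENSG00000159111, at chr17:47823272-47831534 on the minus strand of hg38. It had 36.6 and 36.4 CPM in COL8A1 libraries, against 13.4 and 26.3 CPM in NC libraries. The COL8A1 libraries were nearly equal and both higher, while NC replicate 1 was far below NC replicate 2. The log2 fold change was 0.88 (SE 0.329, unadjusted p = 0.0478, edgeR adjusted p = 0.816). Without NC replicate 1 it was 0.47, and without NC replicate 2 it was 1.44.

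**Figure D4:**
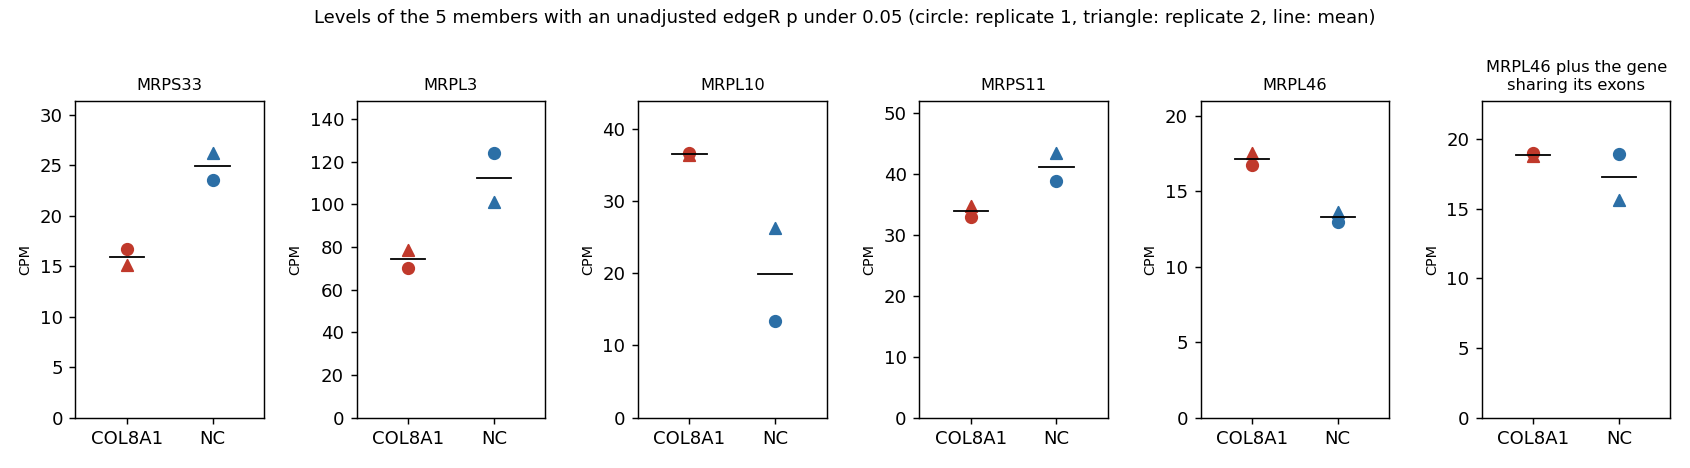
CPM of the 5 members with an unadjusted edgeR p under 0.05, and of MRPL46 summed with the gene that shares its exons, in each library, with COL8A1 left of NC. Circles are replicate 1, triangles replicate 2 and lines group means, and the groups are apart in the first 5 panels but overlap once MRPL46 is summed (19.0 and 18.8 CPM in COL8A1 libraries, against 18.9 and 15.6 CPM in NC libraries).

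Some members differed more between the libraries of a group than the groups differed. The libraries of a group differed more than 2-fold in 6 members, all of at least 10 CPM. That is 7.79% of the 77 members at that level, against 4.07% of all genes of at least 10 CPM. More than 3-fold was seen in 3 members, or 3.90%, against 1.72% of those genes. MRPL30, a homolog of bacterial L30, had 23.7 and 86.5 CPM in COL8A1 libraries, against 23.2 and 25.1 CPM in NC libraries. MRPS16, a homolog of bacterial S16, had 49.1 and 172 CPM in COL8A1 libraries, against 48.4 and 52.5 CPM in NC libraries. In both genes COL8A1 replicate 2 alone stood high and the other 3 libraries were close together. Their log2 fold changes of 1.19 (SE 0.611, unadjusted p = 0.113) and 1.13 (SE 0.589, unadjusted p = 0.118) therefore rested on that library, and without it they were -0.03 and -0.04.

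Other members had a library on the low side. MRPL42, a large subunit protein specific to mitochondria, had 87.1 and 118 CPM in COL8A1 libraries, against 115 and 31.8 CPM in NC libraries. MRPS27, a pentatricopeptide repeat protein of the small subunit, had 63.2 and 77.1 CPM in COL8A1 libraries, against 88.5 and 40.1 CPM in NC libraries. In these NC replicate 2 was the low library. MRPL58, known as ICT1, a peptidyl-tRNA hydrolase built into the large subunit, had 49.0 and 56.8 CPM in COL8A1 libraries, against 24.3 and 56.7 CPM in NC libraries, with NC replicate 1 low. MRPS25, specific to mitochondria, had 73.8 and 35.9 CPM in COL8A1 libraries, against 57.1 and 43.5 CPM in NC libraries. Its COL8A1 libraries lay above and below both NC libraries. MRPL49, also specific to mitochondria, had 89.9 and 47.4 CPM in COL8A1 libraries, against 101 and 103 CPM in NC libraries. The groups of MRPL49 did not overlap, but COL8A1 replicate 2 was well below COL8A1 replicate 1, and its log2 fold change of -0.57 had an SE of 0.309. It was -0.18 without COL8A1 replicate 2 and -1.10 without COL8A1 replicate 1. Different members thus departed in different libraries.

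**Figure D5:**
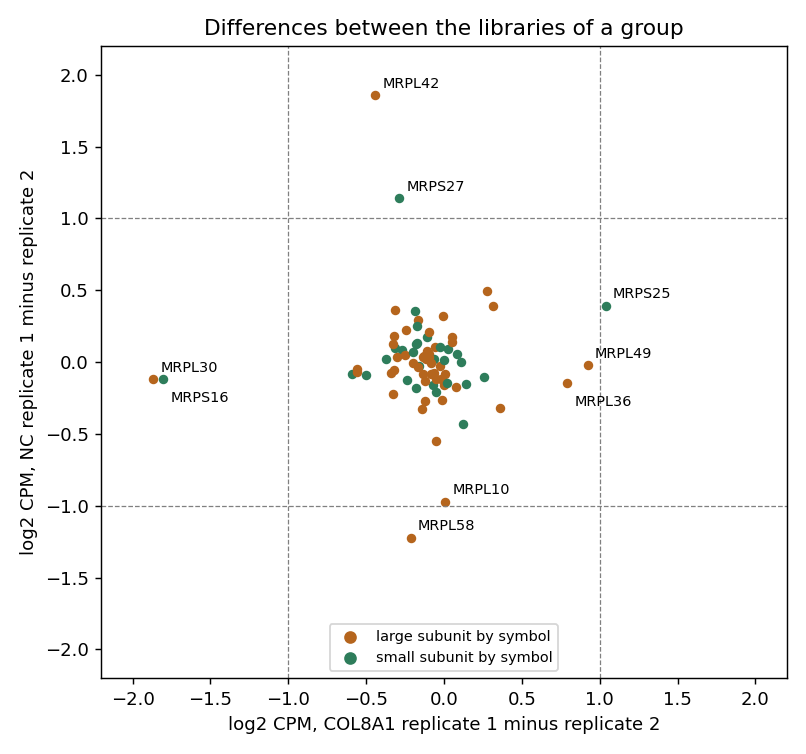
Difference between replicates 1 and 2 of the COL8A1 libraries (horizontal) and of the NC libraries (vertical) in log2 CPM, 1 point per member, with dashed lines at 2-fold. Most members cluster near 0, and MRPL30, MRPS16, MRPS25, MRPL42, MRPS27 and MRPL58 lie beyond 2-fold on 1 axis only, so a single group holds the difference in each.

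The remaining members with a low level per length had few reads or nearly equal libraries. MRPL53 was the only member with fewer than 300 counts in every library, with 90 and 65 counts in COL8A1 libraries, against 73 and 57 in NC libraries. Its log2 fold change of 0.35 had an SE of 0.312, and the groups overlapped. That value was 0.12 without NC replicate 2, 0.20 without COL8A1 replicate 1 and 0.61 without NC replicate 1. MRPL53 shares 608 exon bases on its own strand with CCDC142, named after its values were seen, and summed with it gave a log2 fold change of -0.03. MRPS22, a small subunit protein specific to mitochondria, was another of the 4 lowest per length, with 22.2 and 20.9 CPM in COL8A1 libraries, against 23.3 and 22.5 CPM in NC libraries, a log2 fold change of -0.09.

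Human cells have 3 paralogs of bacterial S18, and none of them passed a test here. The split by origin above counted MRPS18C among the bacterial homologs, but MRPS18A and MRPS18B as specific to mitochondria. MRPS18C, the one that takes the bacterial position, had 23.9 and 31.0 CPM in COL8A1 libraries, against 27.5 and 27.1 CPM in NC libraries. MRPS18B, placed elsewhere in the small subunit, had 83.1 and 86.8 CPM in COL8A1 libraries, against 93.2 and 92.0 CPM in NC libraries. MRPS18A, in the large subunit, had 29.9 and 37.2 CPM in COL8A1 libraries, against 37.0 and 34.6 CPM in NC libraries. The groups did not overlap in MRPS18B alone, whose log2 fold change was -0.13 (unadjusted p = 0.154), and overlapped in the other two.

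The remaining members whose symbol misstates their place overlapped between the groups. MRPS30, in the large subunit, had 63.2 and 64.3 CPM in COL8A1 libraries, against 68.0 and 63.2 CPM in NC libraries, a log2 fold change of -0.04. MRPS36 had 15.2 and 21.5 CPM in COL8A1 libraries, against 17.4 and 18.5 CPM in NC libraries, a log2 fold change of 0.03 with an SE of 0.197.

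The promoter sequences were searched for 3 motifs of factors known from nuclear genes for mitochondrial proteins. RefSeq windows from 250 bases before to 50 bases after the start were found for 69 of the 78 members, 85 windows in all. On either strand, the ETS motif CCGGAAGT was in 14 of them (16.5%), against 4.14% of all 35116 windows. The YY1 motif AANATGGCG, in which N is any base, was in 18 (21.2%), against 3.19%, and in 16 of the 18 a match reached past the start. The NRF1 motif GCGCNTGCG was in 13 (15.3%), against 7.47%. With G for N the YY1 motif was in 13 windows (15.3%), against 1.75%, and with A for N the NRF1 motif was in 3 windows (3.53%), against 1.92%. These spellings were settled after other spellings had been counted. Both an ETS and a YY1 match were held by 2 members, both an NRF1 and a YY1 match by 3 and both an NRF1 and an ETS match by 1, with no overlap between matches. Of the 12 members with the ETS motif, 9 were lower and 3 higher in COL8A1 libraries, with a median log2 fold change of -0.05, beside -0.06 for members without it. Of the 18 with the YY1 motif, 14 were lower and 4 higher, with a median of -0.08, beside -0.05 without it. Of the 12 with the NRF1 motif, 8 were lower and 4 higher, with a median of -0.08, beside -0.05 without it. The ETS match of MRPL3 printed above begins 32 bases before the RefSeq start.

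The other genes of mitochondrial translation were taken from lists based on their known roles. Ribosome proteins under other names were close to the members. Of these 5 genes 4 were lower in COL8A1 libraries, with a median log2 fold change of -0.05, and the fifth was DAP3, a GTP-binding protein of the small subunit. DAP3 had 108 and 99.0 CPM in COL8A1 libraries, against 89.4 and 79.4 CPM in NC libraries, with both COL8A1 libraries higher. Its log2 fold change was 0.29 (SE 0.097, unadjusted p = 0.0329, edgeR adjusted p = 0.783).

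Of 33 genes for assembly of the mitochondrial ribosome and modification of its rRNA, 24 were lower in COL8A1 libraries, with a median log2 fold change of -0.09, and 0 passed the edgeR or DESeq2 test. METTL15, an rRNA methyltransferase of the small subunit, had 13.5 and 15.95 CPM in COL8A1 libraries, against 10.7 and 8.69 CPM in NC libraries (unadjusted p = 0.0220). RPUSD4, a pseudouridine synthase, had 20.3 and 22.1 CPM in COL8A1 libraries, against 24.5 and 27.7 CPM in NC libraries (unadjusted p = 0.0606). The groups were apart in both genes, in opposite directions.

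Of 24 translation factors and activators, 16 were lower, with a median of -0.04, and 0 passed either test. GFM1, the elongation factor that moves the ribosome along, had 65.9 and 62.8 CPM in COL8A1 libraries, against 74.6 and 79.1 CPM in NC libraries (unadjusted p = 0.0308). GFM2, which takes part in ribosome recycling, had 34.1 and 32.7 CPM in COL8A1 libraries, against 38.1 and 43.2 CPM in NC libraries (unadjusted p = 0.0522). Both factors were lower in both COL8A1 libraries. Of 19 mitochondrial aminoacyl-tRNA synthetases, which charge tRNAs for the ribosome, 17 were lower, with a median of -0.08, and 0 passed either test. GARS1, which also serves the cytosol, had 155 and 178 CPM in COL8A1 libraries, against 202.4 and 202.9 CPM in NC libraries (unadjusted p = 0.0251). FARS2 had 12.1 and 8.61 CPM in COL8A1 libraries, against 13.6 and 13.2 CPM in NC libraries (unadjusted p = 0.141), so the groups did not overlap in either synthetase.

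Maintenance and transcription of mitochondrial DNA gave the only DESeq2 call of these lists. Of its 20 genes 16 were lower, and the median log2 fold change was -0.11. MGME1, an exonuclease of mitochondrial DNA maintenance, had 43.8 and 41.2 CPM in COL8A1 libraries, against 60.2 and 63.0 CPM in NC libraries. The groups were well apart, with a log2 fold change of -0.54 (SE 0.091), an adjusted p of 0.457 in edgeR and of 0.0027 in DESeq2. TEFM, the mitochondrial transcription elongation factor, had 7.93 and 8.93 CPM in COL8A1 libraries, against 12.3 and 10.9 CPM in NC libraries (unadjusted p = 0.0385). Among 12 regulators of mitochondrial biogenesis, 4 were lower and 8 higher, with a median of 0.04, and 0 passed either test. PPRC1, a coactivator of that programme, had 63.6 and 75.7 CPM in COL8A1 libraries, against 88.9 and 80.9 CPM in NC libraries (unadjusted p = 0.0655). NRF1, a transcription factor of nuclear genes for mitochondria, had 24.4 and 25.7 CPM in COL8A1 libraries, against 25.7 and 30.9 CPM in NC libraries (unadjusted p = 0.236).

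The RNAs that the ribosome contains or reads differed by small amounts between the groups. Of the 13 mRNAs of the mitochondrial genome, 10 were lower in COL8A1 libraries, with a median log2 fold change of -0.05, and 0 passed the edgeR or DESeq2 test. At an unadjusted edgeR p under 0.05 there were 3 lower and 0 higher, or 23.1%, against 6.07% of all genes tested. In 7 of the 13 (53.8%) both COL8A1 libraries were below both NC libraries, against 18.6% of all genes tested. In 1 (7.69%) both were above, against 18.9%. MT-ND2, a subunit of complex I, had 2153 and 2134 CPM in COL8A1 libraries, against 2445 and 2383 CPM in NC libraries (unadjusted p = 0.0115). MT-ND1, another subunit of complex I, had 1937 and 1968 CPM in COL8A1 libraries, against 2207 and 2118 CPM in NC libraries (unadjusted p = 0.0264). Both were lower in both COL8A1 libraries by less than 0.2 on the log2 scale. The large subunit rRNA MT-RNR2 had 7027 and 6317 CPM in COL8A1 libraries, against 7116 and 7335 CPM in NC libraries, and the small subunit rRNA MT-RNR1 had 912 and 803 CPM in COL8A1 libraries, against 880 and 897 CPM in NC libraries. The labels do not state whether polyadenylated RNA was selected or rRNA depleted.

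The comparison lists outside mitochondrial translation, for import and the cytosolic ribosome, also held mostly genes lower in COL8A1 libraries. Whether this is the same difference as in the members was not tested. Of 21 genes for mitochondrial import and processing, 15 were lower, and the median log2 fold change was -0.08, and 0 passed either test. HSPA9, the import motor chaperone, had 339 and 408 CPM in COL8A1 libraries, against 463 and 463 CPM in NC libraries (unadjusted p = 0.0324). PAM16, a subunit of that motor, had 11.3 and 11.02 CPM in COL8A1 libraries, against 15.1 and 13.5 CPM in NC libraries (unadjusted p = 0.0481). The groups were apart in both.

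Of the 79 genes for proteins of the cytosolic ribosome, 67 were lower in COL8A1 libraries, with a median log2 fold change of -0.10, beside 52 of 78 and -0.05 for the mitochondrial ribosome. At an unadjusted p under 0.05 there were 2 higher and 12 lower, together 17.7% against 6.07% of all genes tested, and 0 passed the edgeR or DESeq2 test. In 49 of the 79 (62.0%) both COL8A1 libraries were below both NC libraries, against 18.6% of all genes tested. RPL32, one of the 2 higher genes, had 616 and 666 CPM in COL8A1 libraries, against 531 and 487 CPM in NC libraries (unadjusted p = 0.0077). Both COL8A1 libraries were the higher ones for RPL32. Cytosolic ribosomal protein genes have many processed copies, so their counts are uncertain. Their median deviation from the 4-library mean was -0.09 and -0.01 in COL8A1 libraries, against 0.04 and 0.06 in NC libraries. Here both COL8A1 libraries lay below both NC libraries, unlike the members, for which COL8A1 replicate 2 lay among the NC libraries. In the lists for ribosome assembly, aminoacyl-tRNA synthetases and mitochondrial DNA, both COL8A1 medians were also below both NC medians. For assembly the values were -0.05 and -0.02 in COL8A1 libraries, against 0.02 and 0.04 in NC libraries. The same held for the mRNAs of the mitochondrial genome, but there COL8A1 replicate 2 was lowest (0.01 and -0.07, against 0.03 and 0.03). In the other mitochondrial lists these medians overlapped between the groups. The difference between the mitochondrial and the cytosolic lists was not tested.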

How the data were processed

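The table analysed held raw read counts per gene as deposited by the authors, with no normalization and 1 column per library. Trim Galore 0.6.9, HISAT2 2.2.1, featureCounts (given as version 0.3) and build hg38 are named per the submitters' processing notes. Their settings, the strand setting and the annotation release are, in the sources used here, not given. Of 61806 genes, 58254 were placed in GENCODE release 29, used for exon lengths and for genes that share exons.

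Counts were tested in R 4.3.3 with edgeR 4.0.16 (filterByExpr, TMM, quasi-likelihood fit and F-test, group as the only term, two-sided, Benjamini-Hochberg adjustment over all 17030 genes tested, threshold 0.05). The fit had 2 residual and 2.64 prior degrees of freedom. SEs and 95% intervals restate that test. CPM were derived here by dividing each deposited count by its library size times the TMM factor. Libraries held 27923796 to 33576228 counts, with no molecular identifiers. DESeq2 1.42.0 and limma-voom (limma 3.58.1) were alternatives. The fits were tested on simulated counts.

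Members, lists and tests were chosen with earlier results of these data known. Named were members called by edgeR or DESeq2, the 10 lowest p-values, the 4 highest and 4 lowest levels per kilobase, MRPS18A to MRPS18C, MRPL12, MRPS30, MRPS36 and members differing more than 2-fold within a group, and from each other list its calls or else its 2 lowest p-values. For some genes that these rules or the marker lists name, the result is not reported here.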

Additional observations from a re-analysis of the deposited data

How the results depend on the processing

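The number of members past an adjusted p of 0.05 was 0 in edgeR under every scaling, filter and left-out library tried, and in limma-voom, but 2 with DESeq2 and 1 with DESeq2 without the low-count filter, an alternative chosen after seeing the data. With the replicate number as a block, 3 members had an unadjusted edgeR p under 0.05, 1 higher and 2 lower, where 4.62% of all genes tested did. The labels do not say that a number marks a shared culture, and same-numbered libraries deviated together with a correlation of only 0.04, so the numbers were not taken as pairs. The median log2 fold change ran from -0.12 without COL8A1 replicate 2 to 0.0018 without COL8A1 replicate 1 for the large subunit, and from -0.11 to 0.018 under the same omissions for the small subunit. Its direction in both thus depended on COL8A1 replicate 1, and the cause was not tested. Under the other settings the medians stayed between -0.07 and -0.06 for the large and between -0.05 and -0.03 for the small subunit, apart from the fits without NC replicate 1 or 2, which gave -0.06 and -0.06 for the large and -0.04 and -0.09 for the small subunit. Of the 24 members named, 12 kept their sign under every setting, among them MRPS33 (-0.72 to -0.57), MRPL3 (-0.74 to -0.45), MRPS11 (-0.36 to -0.20), MRPL46 (0.13 to 0.40) and MRPL10 (0.47 to 1.44). The other 12 turned, MRPL30, MRPS16, MRPL42, MRPL58, MRPS25 and MRPS27 among them. The groups did not overlap in the 12 that kept their sign, and overlapped in the 12 that turned. Where the groups did not overlap, leaving out a library could not turn the sign, apart from small shifts in scaling. The kept signs under those omissions therefore restate that separation and add no support to it. With 2 libraries in each group, differences under about 0.3 on the log2 scale were within the interval of the median member.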
